A study of Mus musculus with 12 samples.

Results

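The genes described here are the mouse Wnt pathway ligands, receptors, secreted antagonists and central signalling genes, 46 of 23185 named genes measured in abdominal fat. They were chosen by symbol: every gene called Wnt, Fzd, Sfrp or Dkk followed by a number, with Axin1, Axin2, Lef1, Tcf7l1, Tcf7l2, Ctnnb1, Lrp5 and Lrp6. Tcf7 was not analysed here. The rule used names and no measured value. It gave 19 Wnt ligands, 12 receptors, 8 antagonists, 6 intracellular genes and 1 gene, Fzd10os, which is an RNA from the strand opposite to Fzd10 and not a receptor.

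Wnt proteins are secreted lipid-modified ligands that bind a Frizzled receptor (Fzd genes) together with the co-receptor Lrp5 or Lrp6. Binding halts a destruction complex built on the scaffolds Axin1, Axin2 and Apc, so that beta-catenin (Ctnnb1) gathers and acts with Tcf/Lef factors on target genes. Axin2 is itself such a target and is widely read as a gauge of the pathway. Sfrp proteins bind Wnt ligands outside the cell, and Dkk1, Dkk2 and Dkk4 bind the Lrp co-receptors. In fat, beta-catenin signalling is known to hold back the formation of adipocytes, and Sfrp5 is known as a protein secreted by adipocytes.

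The samples were 12 arrays of abdominal fat, each from another BKS.Cg-Dock7m +/+ Leprdb/J mouse. This line carries a leptin receptor mutation that makes it obese and diabetic, and all groups share it. At 12 weeks of age the mice were given adenoviruses that express short hairpin RNAs (shRNAs) for knockdown, and fat was taken 1 week later. Controls received 4e9 plaque-forming units of a control shRNA virus. The LCN13 group received 2e9 of an LCN13 shRNA virus, against the lipocalin gene Lcn13, plus 2e9 of control virus. The TSC22D4 group received 2e9 of a TSC22D4 shRNA virus plus 2e9 of control virus. The combined group was given both gene-directed viruses at 2e9 each, without control virus. Each treatment was given to 7 animals, of which the submitters picked 3 as representative for the arrays, not at random. Except between the TSC22D4 and LCN13 groups, which received the same dose of control virus, gain of a gene-directed virus and loss of control virus cannot be told apart, since their amounts changed together.

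Values are RMA log2 levels, and probe levels of different genes are not set against each other. A gene with a mean over the 12 arrays under 6.5 is described as near the lower end, since the median of all values was 6.31. No lowering of either shRNA target was called in the fat of the mice that received its shRNA. The difference of Tsc22d4 from control was -0.0074 (adjusted p = 0.989) in the TSC22D4 group, and Lcn13, listed as Obp2a and near the lower end at 5.71 to 5.79, gave -0.01 (adjusted p = 0.858) in the LCN13 group. In the combined group Tsc22d4 gave -0.07 (adjusted p = 0.888) and Obp2a -0.0085 (adjusted p = 0.967). Adipocyte markers were high in every array, with Adipoq (adiponectin) between 12.20 and 12.45 and Lep (leptin) between 13.90 and 14.01. Arrays that stand apart touch several results below. The mean of 12 mesothelial markers, relative to its mean over all arrays, was 0.50 and 0.52 in LCN13 replicates 5 and 6 and between -0.28 and 0.08 in the other 10, and in each of those LCN13 arrays 10 of the 12 markers exceeded every array of the other groups (3 of the 12 are near the lower end). A liver list, with 6 of 8 genes measured and 4 of them near the lower end, was also high there, at 0.48 and 0.51, and at 0.48 in combined replicate 13, against -0.40 to 0.15 elsewhere. TSC22D4 replicate 11 carried epididymal transcripts, with Lcn8 at 10.87 against 5.91 to 6.72 elsewhere. A B cell list, with 7 of 8 genes measured and 4 of them near the lower end, was at 0.52 in TSC22D4 replicate 10. It was at -0.15 to 0.22 elsewhere. A list of 9 measured macrophage markers was at 0.28 in control replicate 2 and at -0.17 to 0.13 elsewhere. The part of B cells and macrophages in the results below was not tested. Red blood cell markers, with 3 of 6 listed genes measured (Hbb-b1, Alas2 and Slc4a1), lay at 0.93 to 1.28 in the combined arrays and at -1.56 to 0.70 in all others. On the same relative scale, a list of interferon-stimulated genes lay at 1.49 to 1.78 in the controls and at -0.75 to -0.35 in all other arrays. Every comparison that uses the control arrays shares that difference. In whole tissue, fewer cells of a type and less RNA per cell cannot be told apart.

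Promoter sequence is shown for the pair of genes that passed the test against control with LCN13 shRNA, beside a gene of the set whose promoter holds the letters searched. The 250 bases before each start site are from RefSeq on GRCm38.p6, printed 5′ to 3′ on the strand of the gene. Axin2 lies on the plus strand at chr11:108920099-108920348, Fzd5 on the minus strand at chr1:64737751-64738000 and Dkk1 on the minus strand at chr19:30549497-30549746. Capitals mark matches to the Tcf/Lef motif. It was searched on both strands in 4 forms that share their first letters, namely CTTTGAA and also CTTTGAT and also CTTTGTA and also CTTTGTT.
Axin2: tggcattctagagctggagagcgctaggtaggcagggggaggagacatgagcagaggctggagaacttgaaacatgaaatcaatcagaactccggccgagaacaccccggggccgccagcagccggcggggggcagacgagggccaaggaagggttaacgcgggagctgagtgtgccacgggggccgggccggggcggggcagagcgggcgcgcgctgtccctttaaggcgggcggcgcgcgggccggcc
Fzd5: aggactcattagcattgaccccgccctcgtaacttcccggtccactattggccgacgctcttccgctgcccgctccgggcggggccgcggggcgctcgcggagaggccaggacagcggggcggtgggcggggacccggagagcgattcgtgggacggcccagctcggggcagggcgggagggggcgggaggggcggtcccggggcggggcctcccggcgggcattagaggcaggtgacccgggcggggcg
Dkk1: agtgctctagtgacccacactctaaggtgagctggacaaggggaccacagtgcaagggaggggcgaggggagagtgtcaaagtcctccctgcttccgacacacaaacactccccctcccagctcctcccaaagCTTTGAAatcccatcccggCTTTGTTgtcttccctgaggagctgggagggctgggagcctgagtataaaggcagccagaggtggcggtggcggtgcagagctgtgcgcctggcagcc
Dkk1 held 2 matches, CTTTGAA beginning 117 bases and CTTTGTT beginning 98 bases before the start, while these windows of Axin2 and Fzd5 held 0 matches. Of 38 promoters listed for 30 of the 46 genes, 6 (15.8%) held a match, against 14.8% of 32851 promoters of all genes. Those 6 genes were Dkk1, Fzd7, Lef1, Tcf7l2, Wnt5b and Wnt11. A match in this window is a description of letters only. Dkk1, the antagonist of Lrp5 and Lrp6, was near the lower end in this fat, at 5.83 to 6.00 over the 12 arrays.

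Each gene was tested with limma over all 12 arrays, and a gene was called where its Benjamini-Hochberg adjusted p over 23185 genes was under 0.05. Over the 4 groups, the F test called 1 of the 46 genes, Axin2 (adjusted p = 0.00998), where the background was 1.61% of all genes. At an unadjusted p under 0.05, that test took 10 of the 46, against 16.1% of all genes. Against control, LCN13 shRNA gave 2 calls among the 46 (background 1.44%), with Axin2 higher (0.397% of all genes called higher) and Fzd5 lower (1.04% called lower). Both shRNAs together gave 1 call (background 1.34%), Lrp6 higher (0.315% called higher). TSC22D4 shRNA gave 0 calls in limma (background 1.17%), with 5 genes at an unadjusted p under 0.05 against 11.8% of all genes. At that level LCN13 shRNA took 6 genes (background 12.6%) and both shRNAs took 5 (background 11%). Against these backgrounds, 1 or 2 calls say nothing particular of Wnt genes as a set, and the account below is of single genes.

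The remaining comparisons gave few calls as well. TSC22D4 shRNA against LCN13 shRNA called 1 gene (background 1.03%), Axin2 lower (0.574% of all genes called lower), and took 9 at an unadjusted p under 0.05 (background 17.7%). The combined group against TSC22D4 shRNA called 0 of the 46 (background 0%), with 3 at an unadjusted p under 0.05 (background 6.91%). The combined group against LCN13 shRNA also called 0 (background 0.00863%), with 8 at an unadjusted p under 0.05 (background 10.7%). The interaction, which asks whether the TSC22D4 shRNA difference depended on LCN13 shRNA, called 0 (background 0.397%), with 4 at an unadjusted p under 0.05 (background 7.08%). Averaged over the other shRNA, the TSC22D4 difference called 1 gene (background 1.39%), Axin2 lower (0.832% called lower), and took 9 at an unadjusted p under 0.05 (background 16.1%). The averaged LCN13 difference likewise called 1 (background 1.08%), Axin2 higher (0.354% called higher), and took 5 at the unadjusted level (background 13.7%).

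**Figure D1:**
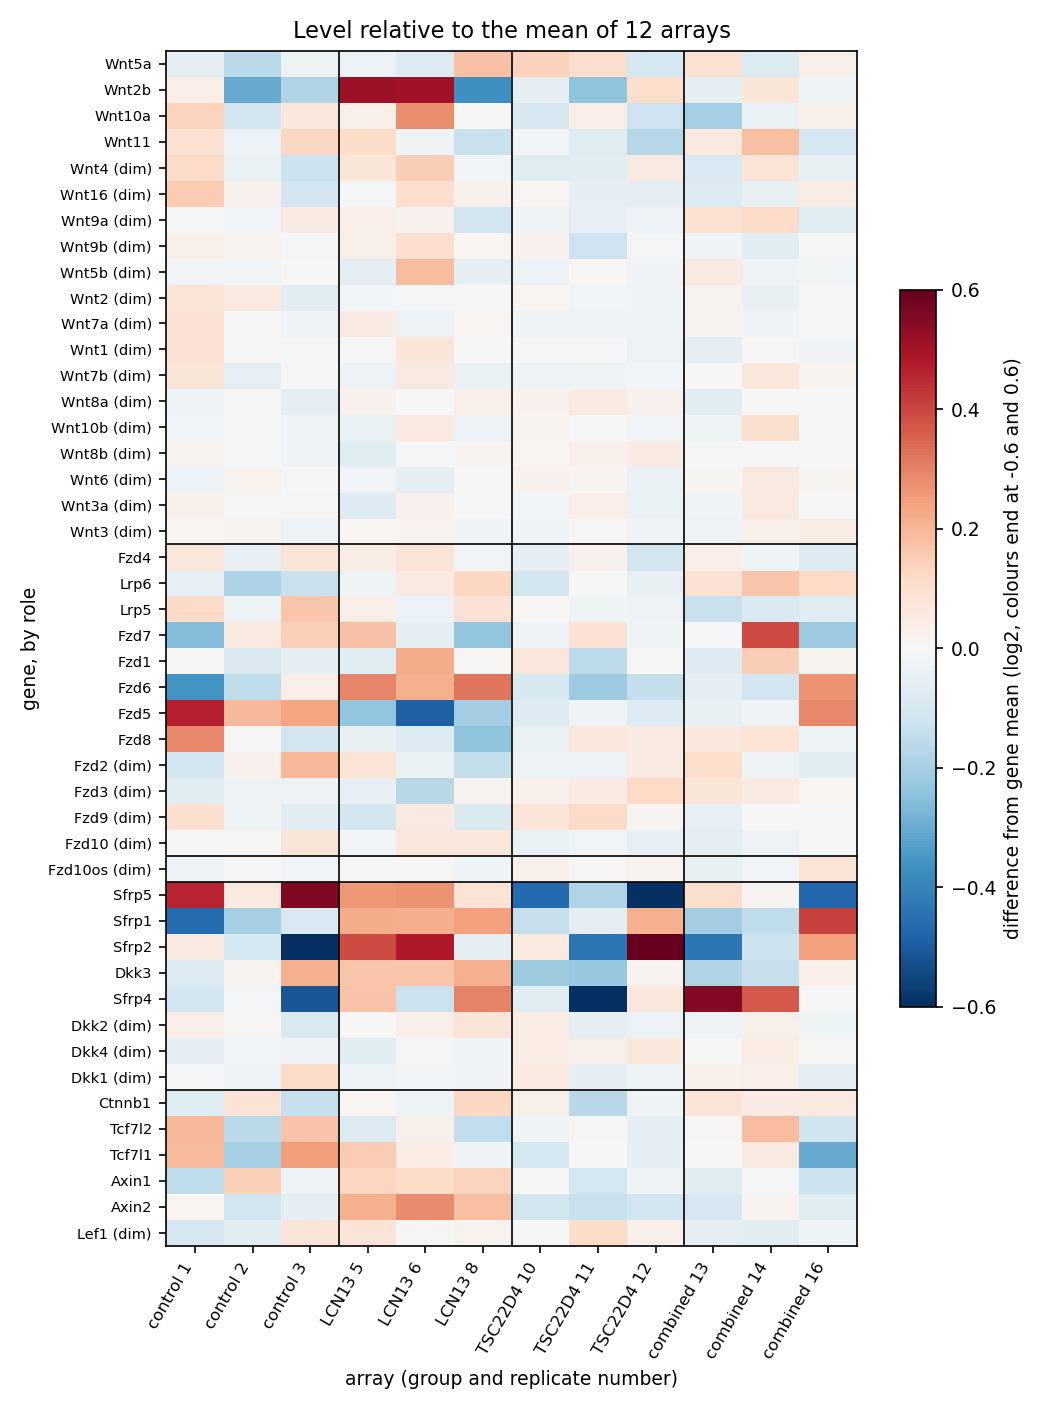
Level of each of the 46 genes in each of the 12 arrays, as the log2 difference from that gene's mean over all arrays (colour), with genes in rows by role and arrays in columns by group, and (dim) marking means under 6.5. Most Wnt ligands are pale, while Wnt2b is red in LCN13 replicates 5 and 6 and blue in replicate 8. Axin2 and Fzd6 are on the red side in all 3 LCN13 arrays, where Fzd5 is on the blue side.

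Axin2, the feedback scaffold and target gene, differed most clearly by group. It read 6.86, 6.73 and 6.79 in the controls, and 7.06, 7.13 and 7.03 with LCN13 shRNA. It read 6.74, 6.72 and 6.73 with TSC22D4 shRNA, and 6.75, 6.87 and 6.78 with both. All 3 LCN13 arrays were above all 9 other arrays. Axin2 rose with LCN13 shRNA against control by 0.28 on the log2 scale (SE 0.04, 95% interval 0.19 to 0.37, n = 3 and 3, limma adjusted p = 0.0103), which is 1.21-fold. It was lower with TSC22D4 shRNA than with LCN13 shRNA by 1.27-fold (log2 -0.35, SE 0.04, adjusted p = 0.0188).

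With both shRNAs, Axin2 stood close to the control level. The difference from control was 0.0041 (adjusted p = 0.996), with an interval from -0.09 to 0.10. The combined group read below LCN13 shRNA alone by a log2 difference of -0.28, with no overlap of the arrays, but this missed the threshold (adjusted p = 0.109). Without LCN13 replicate 8 that difference was -0.30 and was called (adjusted p = 0.0464). The interaction over all arrays was -0.21 and missed the threshold (adjusted p = 0.346). A dependence of the LCN13 difference on TSC22D4 shRNA was thus not shown for Axin2. TSC22D4 shRNA against control gave -0.07 (adjusted p = 0.628). The averaged differences were -0.17 for TSC22D4 shRNA (adjusted p = 0.0292) and 0.17 for LCN13 shRNA (adjusted p = 0.0268), and the LCN13 group alone stood apart in the values behind both. Each of these averaged calls was lost in 8 of 12 fits that left out 1 array (adjusted p up to 0.0730 and 0.0735).

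The LCN13 calls draw on the arrays with high mesothelial and liver lists. LCN13 replicate 8, whose mesothelial list was at -0.15, had Axin2 at 7.03, above all 9 arrays of the other groups. In that replicate, 3 of the 12 mesothelial markers still exceeded every array of the other groups. Without replicates 5 and 6, the Axin2 difference from control was 0.23 and was no longer called (adjusted p = 0.229), with the lone LCN13 array assumed to vary like the other groups. The Axin2 difference between TSC22D4 and LCN13 shRNA became -0.30 (adjusted p = 0.374) without them. With each of the 12 arrays left out singly, the Axin2 call of LCN13 shRNA against control was kept in 12 of 12 fits (adjusted p 0.00874 to 0.0428). It was lost in a fit on the 6 arrays compared (adjusted p = 0.110) and with eBayes trend and robust settings (adjusted p = 0.0590). The call between TSC22D4 and LCN13 shRNA was lost in 5 of 12, those without LCN13 replicate 5 or 6 or any TSC22D4 array, TSC22D4 replicate 11 included (adjusted p = 0.0539 without it). The F test call of Axin2 over the 4 groups was lost without LCN13 replicate 5. Without replicate 6 that call stood just under the threshold (adjusted p = 0.0467). The part of the mesothelial, liver and epididymal transcripts in these results was not tested.

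**Figure D2:**
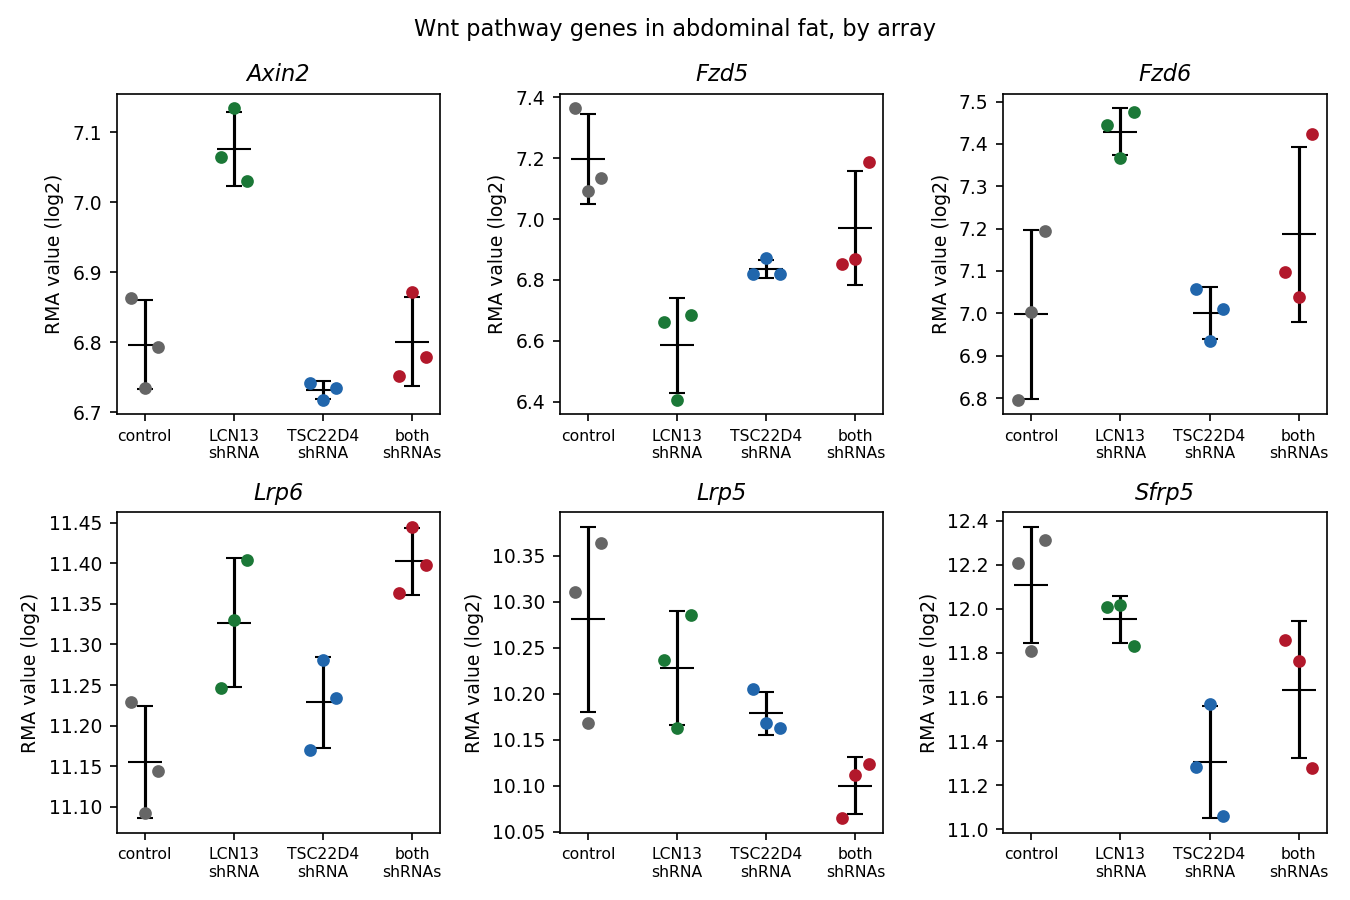
RMA log2 level (y axis) by group (x axis) for Axin2, Fzd5, Fzd6, Lrp6, Lrp5 and Sfrp5, with a point per array, the group mean as a horizontal line and bars of 1 SD over 3 arrays, and y axes that do not start at 0. The LCN13 arrays lie above all others for Axin2, the LCN13 arrays lie below all controls for Fzd5, and the 3 combined arrays lie above all controls for Lrp6.

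The other intracellular genes gave no call in limma in any comparison. Beta-catenin, Ctnnb1, was bright and even, from 12.14 to 12.44 over the 12 arrays, and its difference between both shRNAs and control was 0.10 (95% interval -0.04 to 0.25, adjusted p = 0.673). Axin1, the constitutive scaffold, read 8.40, 8.38 and 8.40 with LCN13 shRNA and 8.12, 8.41 and 8.24 in the controls, which overlap. It read 8.26, 8.16 and 8.24 with TSC22D4 shRNA and 8.20, 8.25 and 8.14 with both, all below the LCN13 arrays. The Tcf factors that bind DNA with beta-catenin varied more among the controls than between groups. Tcf7l1 ran from 8.98 to 9.54 and Tcf7l2 from 9.18 to 9.54 over the 12 arrays, with controls of 9.47, 9.08 and 9.54 for the former. Lef1 was near the lower end, at 6.04 to 6.25.

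Among receptors, Fzd5 fell with LCN13 shRNA. Its level was 7.36, 7.09 and 7.13 in the controls, 6.66, 6.41 and 6.69 with LCN13 shRNA, 6.82, 6.87 and 6.82 with TSC22D4 shRNA, and 6.85, 6.87 and 7.19 with both. The LCN13 arrays were the lowest 3 of the 12, and the control arrays overlapped only with combined replicate 16. The fall was 1.53-fold (log2 -0.61, SE 0.11, 95% interval -0.85 to -0.37, n = 3 and 3, limma adjusted p = 0.0267). TSC22D4 shRNA gave -0.36 against control (adjusted p = 0.198), with no overlap of the arrays, and both shRNAs gave -0.23 (adjusted p = 0.50).

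Fzd5 also had the smallest p of the set for the interaction, 0.74 (SE 0.15, 95% interval 0.40 to 1.09), which missed the threshold over all genes (adjusted p = 0.136). The interaction of Sfrp2 was as far from 0, at -0.74, with a wide interval (-1.74 to 0.26, adjusted p = 0.842). Each shRNA alone went with lower Fzd5 readings, and the combined group did not read lower still. Over all genes, 85 of the 92 interaction calls were positive. The interaction uses the control arrays, where the interferon-stimulated list was high, and the part of that difference was not tested. That interaction passed when only the 10894 genes with means of at least 6.5 were tested (adjusted p = 0.0422). The Fzd5 call of LCN13 shRNA was lost in 6 of 12 fits that left out 1 array, those without any of the 3 controls, LCN13 replicate 5 or 6, or TSC22D4 replicate 10 (adjusted p up to 0.0889), and in a fit on the 6 arrays compared (adjusted p = 0.134). Without LCN13 replicates 5 and 6 together the difference was -0.51 (adjusted p = 0.300).

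Fzd6 readings moved the other way. Levels were 6.80, 7.00 and 7.19 in the controls, 7.45, 7.37 and 7.47 with LCN13 shRNA, 7.06, 6.93 and 7.01 with TSC22D4 shRNA, and 7.10, 7.04 and 7.42 with both. The LCN13 arrays were above all controls and all TSC22D4 arrays but overlapped the combined group. The LCN13 difference from control was 0.43 (95% interval 0.18 to 0.69) and missed the threshold (adjusted p = 0.129), as did that of TSC22D4 against LCN13 shRNA at -0.43 (adjusted p = 0.103). With array weights both passed (adjusted p = 0.0486 and 0.0367), and the second also passed in a fit on the 6 arrays compared (adjusted p = 0.0466). In LCN13 replicate 8, where the mesothelial list was at -0.15, Fzd6 was at 7.47, the highest of the 12 readings. The part of mesothelial transcripts in the Fzd6 readings was not tested.

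Of the co-receptors, Lrp6 rose with both shRNAs and Lrp5 gave no call over all arrays. Lrp6 read 11.23, 11.09 and 11.14 in the controls, 11.25, 11.33 and 11.40 with LCN13 shRNA, 11.17, 11.28 and 11.23 with TSC22D4 shRNA, and 11.36, 11.45 and 11.40 with both. The combined and LCN13 arrays were all above the controls, and the TSC22D4 arrays overlapped them. The rise of Lrp6 with both shRNAs was 0.25 (SE 0.05, 95% interval 0.14 to 0.36, n = 3 and 3, limma adjusted p = 0.0472). The call stood just under the threshold and was lost in 9 of 12 fits that left out 1 array, all except those without control replicate 1 or LCN13 replicate 5 or 8 (adjusted p up to 0.155). It was also lost on the 6 arrays compared (adjusted p = 0.134), among genes at 6.5 or above (0.0589), with trend and robust settings (0.0648) and without LCN13 replicates 5 and 6 (0.0526). LCN13 shRNA alone gave 0.17 (adjusted p = 0.162) and TSC22D4 shRNA alone gave 0.07 (adjusted p = 0.646). The LCN13 difference averaged over TSC22D4 shRNA was 0.17 (adjusted p = 0.0553). The combined arrays are also those with the highest red blood cell markers, whose part in the Lrp6 result was not tested.

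Lrp5 readings in the combined group lay on the other side of the controls. They were 10.31, 10.17 and 10.36 in the controls, 10.24, 10.16 and 10.29 with LCN13 shRNA, 10.21, 10.17 and 10.16 with TSC22D4 shRNA, and 10.06, 10.11 and 10.12 with both. The combined arrays were the lowest 3 of the 12. The difference from control was -0.18 (95% interval -0.29 to -0.07) and missed the threshold (adjusted p = 0.147), but it passed without control replicate 2, at -0.24 (adjusted p = 0.0285).

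Fzd4, a receptor for Wnt ligands and for Norrin, was bright in every array. It ran from 12.68 to 12.86 over all arrays, and its difference between TSC22D4 shRNA and control was -0.08 (95% interval -0.18 to 0.03, adjusted p = 0.616). Fzd1 ran from 7.47 to 7.85, Fzd7 from 7.62 to 8.28 and Fzd8 from 6.35 to 6.88, with no call in limma in any comparison. Fzd2, Fzd3, Fzd9 and Fzd10 were near the lower end. Fzd3 read 6.08, 6.12 and 6.11 in the controls, 6.10, 5.98 and 6.16 with LCN13 shRNA, 6.17, 6.20 and 6.26 with TSC22D4 shRNA, and 6.22, 6.20 and 6.16 with both. Its controls were below all TSC22D4 and combined arrays, with no call over all 12 arrays. Without LCN13 replicate 8 the averaged TSC22D4 difference of Fzd3 was 0.13 and was called (adjusted p = 0.0406).

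**Figure D3:**
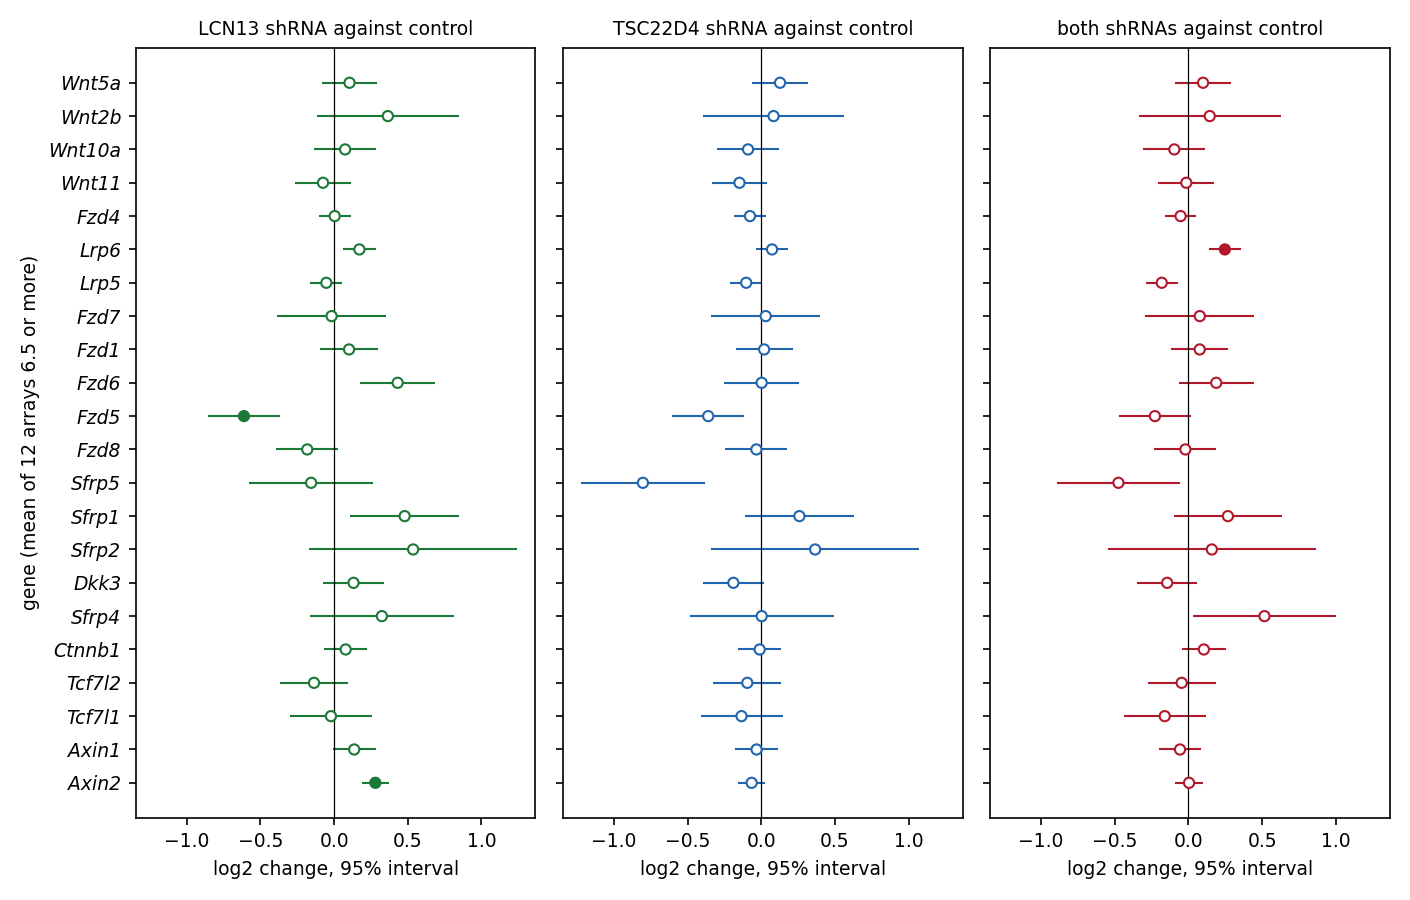
Log2 change against control (x axis) of the 22 genes with a mean of at least 6.5 (y axis) for LCN13 shRNA, TSC22D4 shRNA and both, with bars for the 95% interval of the limma fit and filled points for an adjusted p under 0.05 over all genes. Filled points are Axin2 and Fzd5 with LCN13 shRNA and Lrp6 with both, and the 3 panels share the same control arrays.

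Sfrp5, the adipocyte-secreted Wnt antagonist, showed the widest difference of the set with TSC22D4 shRNA. It read 12.21, 11.81 and 12.31 in the controls, 12.01, 12.02 and 11.83 with LCN13 shRNA, 11.28, 11.57 and 11.06 with TSC22D4 shRNA, and 11.86, 11.77 and 11.28 with both. All 3 TSC22D4 arrays were below all control and LCN13 arrays, and the combined group overlapped every other group. The TSC22D4 difference was -0.80 (SE 0.19, 95% interval -1.22 to -0.38) and missed the threshold over all genes (adjusted p = 0.0955). It passed when only genes with means of at least 6.5 were tested (adjusted p = 0.0278). Averaged over LCN13 shRNA, the TSC22D4 difference was -0.56 (adjusted p = 0.0784, and 0.0273 among the brighter genes). The difference of both shRNAs from control was -0.47 (adjusted p = 0.373), and that of LCN13 shRNA alone was -0.16 (adjusted p = 0.813). Without TSC22D4 replicate 11, the array with epididymal transcripts, the TSC22D4 difference was -0.94 (adjusted p = 0.106).

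Sfrp1, another secreted antagonist, read 8.91, 9.17 and 9.28 in the controls and 9.59, 9.59 and 9.61 with LCN13 shRNA, which do not overlap. It read 9.23, 9.31 and 9.58 with TSC22D4 shRNA and 9.16, 9.22 and 9.78 with both. The LCN13 difference was 0.48 (95% interval 0.11 to 0.85) and missed the threshold (adjusted p = 0.251). LCN13 replicate 8 read as high as replicates 5 and 6 here. A list of 11 measured fibroblast and preadipocyte markers lay at 0.03 to 0.09 in the LCN13 arrays, with replicate 8 the highest. It lay at -0.29 to 0.0061 in the controls, -0.14 to 0.08 with TSC22D4 shRNA and -0.0028 to 0.09 with both. A list of 6 smooth muscle markers lay at 0.09 to 0.22 in the LCN13 arrays and at -0.23 to 0.05 in the controls. With TSC22D4 shRNA that list lay at -0.12 to 0.06, and with both at -0.10 to 0.11. For each list the LCN13 arrays thus overlapped the combined ones. The part of these cells in the Sfrp1 readings was not tested.

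Sfrp2 and Sfrp4 varied widely within every group. Sfrp2 ran from 7.51 to 8.94 over the 12 arrays, and its LCN13 difference of 0.54 had an interval from -0.17 to 1.24 (adjusted p = 0.546). Sfrp4 read 6.94, 7.05 and 6.54 in the controls and 7.60, 7.42 and 7.05 with both shRNAs, which almost touch but do not overlap. That difference was 0.52 (adjusted p = 0.414), and the one between the combined group and TSC22D4 shRNA was 0.51 (adjusted p = 0.698).

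Dkk3, a Dickkopf relative whose action on Lrp receptors is less settled, read 7.02, 7.12 and 7.32 in the controls, 7.27, 7.27 and 7.32 with LCN13 shRNA, 6.89, 6.88 and 7.13 with TSC22D4 shRNA, and 6.92, 6.97 and 7.14 with both. The LCN13 arrays were above all TSC22D4 and combined arrays. The differences were -0.32 for TSC22D4 against LCN13 shRNA (adjusted p = 0.119) and -0.28 for both against LCN13 shRNA (adjusted p = 0.330). Dkk1, Dkk2 and Dkk4 were near the lower end. Dkk4 read 5.88, 5.92 and 5.91 in the controls, 5.87, 5.92 and 5.91 with LCN13 shRNA, 5.98, 5.97 and 6.00 with TSC22D4 shRNA, and 5.93, 5.98 and 5.94 with both. Its difference between TSC22D4 shRNA and control was 0.08 (adjusted p = 0.133). With array weights, TSC22D4 against LCN13 shRNA was called for Dkk4 (0.09, adjusted p = 0.0301) and for Dkk3 (-0.33, adjusted p = 0.0468), as was the averaged TSC22D4 difference of Dkk4 (0.07, adjusted p = 0.0362).

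The Wnt ligands themselves gave 0 calls in limma in all comparisons over the 12 arrays. Of the 19, 15 were near the lower end, as were 52.2% of the 46 genes and 53.0% of all genes, so most ligand probe sets give little information on change. The 4 ligands with means of at least 6.5 were Wnt5a, Wnt2b, Wnt10a and Wnt11. Wnt5a, a ligand known mainly for signalling without beta-catenin, ran from 6.58 to 6.92 over the 12 arrays, with a TSC22D4 difference of 0.13 (adjusted p = 0.640). Wnt10a ran from 6.33 to 6.81 and Wnt11 from 6.35 to 6.71. At an unadjusted p under 0.05 the F test took 1 ligand, Wnt8a, near the lower end. Wnt8a read 6.00, 6.03 and 5.97 in the controls, 6.06, 6.03 and 6.06 with LCN13 shRNA, 6.06, 6.08 and 6.06 with TSC22D4 shRNA, and 5.96, 6.03 and 6.02 with both. Its interaction was -0.11 (adjusted p = 0.339) and its difference between both and TSC22D4 shRNA was -0.06 (adjusted p = 0.643).

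Wnt2b was the ligand with the largest spread, and its high readings fell in the arrays with high mesothelial markers. It read 7.23 and 7.22 in LCN13 replicates 5 and 6 but 6.35 in replicate 8, the lowest of the 12 arrays. Controls read 6.75, 6.41 and 6.53, TSC22D4 arrays 6.66, 6.47 and 6.82, and combined arrays 6.66, 6.79 and 6.68. The mean LCN13 difference of 0.36 had an interval from -0.12 to 0.85 (adjusted p = 0.546). Without replicate 8 it was 0.66 and was called (adjusted p = 0.0378), as was TSC22D4 against LCN13 shRNA at -0.57 (adjusted p = 0.0423), and both calls then rest on the arrays with high mesothelial markers. Rspo1, an R-spondin that strengthens Wnt signals at the receptor, read 9.63, 9.72 and 9.10 with LCN13 shRNA against 8.35, 8.35 and 9.01 in the controls. Its LCN13 difference of 0.91 missed the threshold (adjusted p = 0.0829), and replicate 8 was the lowest LCN13 array for it as well. The part of mesothelial transcripts in these readings was not tested.

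**Figure D4:**
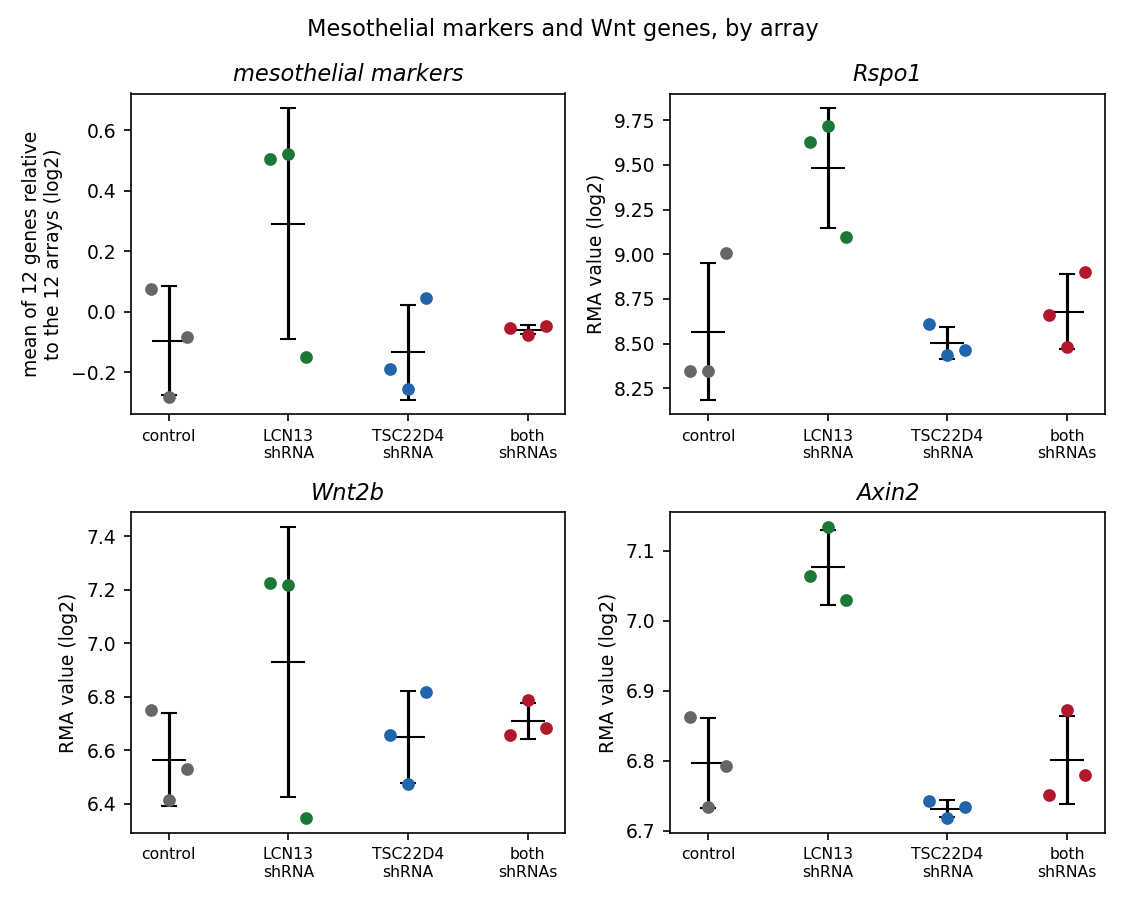
Mean of 12 mesothelial markers relative to its mean over the 12 arrays (log2), and RMA log2 levels of Rspo1, Wnt2b and Axin2 (y axes, which do not start at 0), by group (x axis), with a point per array, the group mean and bars of 1 SD over 3 arrays. LCN13 replicates 5 and 6 are high in all 4 panels. Replicate 8 lies among the arrays of the other groups for the markers, is low for Wnt2b and is high for Axin2.

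Genes whose arrays did not overlap between groups were counted beside the same count over all genes. TSC22D4 and control arrays did not overlap for 10 of the 46 genes (background 16.6%), LCN13 and control arrays for 6 (background 15.7%), and combined and control arrays for 6 (background 14.9%). The combined group was apart from TSC22D4 shRNA for 10 genes (background 14.5%) and from LCN13 shRNA for 11 (background 16.5%). TSC22D4 and LCN13 arrays were apart for 11 (background 25.2%). For LCN13 shRNA against control these were Sfrp1, Axin2, Fzd6, Lrp6 and Wnt8a, with higher readings, and Fzd5, with lower ones.

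The median change over the set was small in each comparison with control, and those comparisons share the same control arrays. Over the 22 genes with means of at least 6.5, the median log2 difference was 0.09 with LCN13 shRNA, -0.03 with TSC22D4 shRNA and -0.0051 with both, beside 0.02, 0.0055 and 0.02 over all genes at that level. Between TSC22D4 and LCN13 shRNA it was -0.11, beside -0.01. The median half-width of the 95% interval for those 22 genes was 0.211.

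Other genes of the pathway were taken from lists of 81 genes in 7 roles, all 81 measured. The F test over the 4 groups called 3 of the 81 (background 1.61%) and took 22 at an unadjusted p under 0.05 (background 16.1%). Against control, calls were 1 lower with TSC22D4 shRNA (0.88% of all genes called lower), 1 higher with LCN13 shRNA (0.397% higher) and 1 higher with both (0.315% higher). TSC22D4 against LCN13 shRNA gave 2 lower (0.574%), and the averaged TSC22D4 difference gave 2 lower (0.832%). Those averaged calls were Tpbg and Chd8, each lost in most fits that left out 1 array (limma adjusted p up to 0.0726 and 0.0817). The averaged LCN13 difference gave 1 higher (0.354%). Comparisons of the combined group with each single shRNA, like the interaction, gave 0 in limma. At an unadjusted p under 0.05 those last counts were 4 (against TSC22D4 shRNA, background 6.91%), 14 (against LCN13 shRNA, background 10.7%) and 7 (interaction, background 7.08%).

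Chd8, a chromatin remodeller that binds beta-catenin and represses its targets, rose with LCN13 shRNA. It read 9.09, 9.01 and 9.10 in the controls, 9.21, 9.26 and 9.21 with LCN13 shRNA, 9.02, 9.03 and 8.96 with TSC22D4 shRNA, and 9.09, 9.02 and 9.03 with both. The LCN13 arrays were above all 9 others, as for Axin2. The rise against control was 0.16 (SE 0.03, limma adjusted p = 0.0450), and TSC22D4 against LCN13 shRNA gave -0.22 (adjusted p = 0.0293). With single arrays left out, the first call was lost 11 times of 12 (highest adjusted p 0.155) and the second 5 times (highest 0.0920). Without LCN13 replicates 5 and 6 together these differences were 0.15 (adjusted p = 0.374) and -0.21 (adjusted p = 0.429).

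Apc, the tumour suppressor scaffold of the destruction complex, rose with both shRNAs, as Lrp6 did. It read 10.20, 10.17 and 10.24 in the controls, 10.32, 10.43 and 10.31 with LCN13 shRNA, 10.24, 10.23 and 10.23 with TSC22D4 shRNA, and 10.46, 10.36 and 10.43 with both. Combined and LCN13 arrays were above all controls. The rise with both shRNAs was 0.22 (SE 0.04, limma adjusted p = 0.0278), lost in 6 of 12 fits that left out 1 array (adjusted p up to 0.116), and LCN13 shRNA alone gave 0.15 (adjusted p = 0.114). The averaged LCN13 difference of Apc was 0.17 (adjusted p = 0.0209), lost in 6 of the 12 (adjusted p up to 0.0632). As for Lrp6, the part of the red blood cell transcripts, highest in the combined arrays, was not tested.

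Tpbg, a membrane glycoprotein known to restrain Wnt signalling, fell with TSC22D4 shRNA. It read 6.71, 6.80 and 6.72 in the controls, 6.73, 6.79 and 6.72 with LCN13 shRNA, 6.57, 6.58 and 6.58 with TSC22D4 shRNA, and 6.69, 6.67 and 6.66 with both. The TSC22D4 arrays were below all 9 others. The change was -0.16 on the log2 scale (SE 0.03, limma adjusted p = 0.0269), and TSC22D4 against LCN13 shRNA gave -0.17 (adjusted p = 0.0381). The call against control was lost in 6 of 12 fits that left out 1 array (adjusted p up to 0.104), the fit without TSC22D4 replicate 11 among them (adjusted p = 0.0962). The call against LCN13 shRNA was lost in 7 of 12 (adjusted p up to 0.125).

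The list of other target genes of the pathway gave no call beside that of Axin2. Of its 14 genes, 0 were called by limma in any comparison, and 0 had an unadjusted p under 0.05 for LCN13 shRNA against control, where the background was 12.6%. Their median difference there was 0.03. At the unadjusted level, 5 of the 14 differed between the combined group and LCN13 shRNA, all lower (background 10.7%), and 5 between TSC22D4 and LCN13 shRNA, 1 higher and 4 lower (background 17.7%). Ccnd1, cyclin D1, gave no call in any comparison, and Myc gave -0.39 with TSC22D4 shRNA against control (adjusted p = 0.210). Mmp7, a matrix protease named here after its values were seen, had the widest spread of the list, at 5.74, 8.67 and 9.50 in the controls and 9.90, 9.74 and 10.17 with LCN13 shRNA. Its LCN13 difference of 1.97 had an interval from -0.45 to 4.38 (adjusted p = 0.509), and its controls alone spanned most of the range of the 12 arrays.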

How the data were processed

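Fat RNA of 12 mice in 4 groups of 3 was labelled with biotin and hybridised to Affymetrix arrays, per the labels. Each deposited value is a log2 level of 1 probe set on 1 array. The authors made them with RMA, per the submitters' processing notes, which corrects background, normalizes and summarises probes. RMA settings and probe set definitions are not given here. Sorted values of any pair of arrays were at most 0.00188 apart, so a shift common to most genes would not show, and dim probe sets show reduced differences. Of 25206 probe sets, 23185 had 1 gene symbol each, 0 had several and 2021 had none. Symbols were checked in a RefSeq table on GRCm38.p6, where all 46 genes matched. Columns of other samples numbered 0. Within groups, arrays correlated at 0.994 to 0.998. The number of arrays limits the precision.

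Two-sided tests were run in R 4.3.3 with limma 3.58.1 (lmFit, contrasts.fit, default eBayes), with 1 mean per group over 12 arrays, and 8 residual and 1.38 prior degrees of freedom. P-values were adjusted by Benjamini-Hochberg over 23185 genes within each of 10 comparisons, dim genes included. The script was tested on simulated data. Alternatives were array weights, fits on the 6 arrays compared, eBayes with trend and robust, genes at 6.5 or above, re-centred arrays, and each array left out. A fit without LCN13 replicates 5 and 6 was added after seeing the data.

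Genes named were those called in any comparison, the 3 with the smallest p per comparison and the 3 brightest per role, with values in every array where the unadjusted F test p was under 0.05. Of the other pathway genes, those called and the 4 with the smallest F test p were named. Axin1, Lef1, Ccnd1, Myc, Mmp7 and the ligands and receptors given by their ranges were named after their values were seen. The genes and lists were chosen with earlier results of these data known.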

Additional observations from a re-analysis of the deposited data

How the results depend on the processing

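No paired analysis was possible because the groups share no replicate numbers. The differences refitted for single genes were those called and the 3 with the smallest p in each comparison; none of these changed sign under any alternative, and re-centring the arrays changed no call among the 46 genes. With array weights, calls among the 46 were 4 for TSC22D4 against LCN13 shRNA, 2 for each averaged difference and 2 over the 4 groups, while calls over all genes were 1178 against 239, 810 against 323 (TSC22D4 averaged), 614 against 251 (LCN13 averaged) and 935 against 374. They were 680 against 333 for LCN13 shRNA, 518 against 311 for both and 447 against 272 for TSC22D4 shRNA, each against control. Fits on the 6 arrays compared gave 0 calls for LCN13 shRNA against control (102 against 333 over all genes), 0 for both against control (126 against 311), 0 for TSC22D4 shRNA against control (142 against 272) and 2 for TSC22D4 against LCN13 shRNA (75 against 239). With trend and robust, calls were 1 for LCN13 shRNA and 0 for both against control, 1 for the interaction (Fzd5), 0 for each averaged difference and 2 over the 4 groups, where over all genes they were 307, 299, 105, 363 (TSC22D4), 218 (LCN13) and 426. Among genes at 6.5 or above, calls were 1 for TSC22D4 shRNA (Sfrp5) and 0 for both against control, 1 for the interaction, 2 for the averaged TSC22D4 difference and 2 over the 4 groups, where all 10894 genes at that level gave 320, 322, 104, 447 and 472. The set's median there was 0.0901 for LCN13 shRNA against control, -0.0928 for both against LCN13 shRNA and -0.105 for TSC22D4 against LCN13 shRNA. Genes without overlap there, of 22, numbered 2 for TSC22D4 shRNA (20.8% of all genes at that level), 5 for LCN13 shRNA (19.9%) and 3 for both (20.6%) against control, 4 for both against TSC22D4 (16.8%), 6 for both against LCN13 (20.2%) and 8 for TSC22D4 against LCN13 (28.4%). Without LCN13 replicates 5 and 6, calls were 0 for LCN13 shRNA against control, both against control, TSC22D4 against LCN13 shRNA, each averaged difference and the 4 groups, and over all genes 100, 279, 0, 61 (TSC22D4), 90 (LCN13) and 171, with 35 against 92 for the interaction. For both against LCN13 shRNA, calls over all genes ran from 0 to 14 over these alternatives, against 2. Except where fewer genes or arrays were used, the cause of these shifts was not tested. With each array left out, calls among the 46 ranged from 1 to 3 for LCN13 shRNA against control, 0 to 1 for both against control, 0 to 1 for both against LCN13 shRNA, 0 to 2 for TSC22D4 against LCN13 shRNA and 0 to 2 for each averaged difference and the 4 groups, and stayed at 0 for TSC22D4 shRNA against control, both against TSC22D4 shRNA and the interaction. Calls over all genes ranged from 205 to 426, 165 to 376, 0 to 94, 2 to 582, 132 to 718 (TSC22D4 averaged), 135 to 389 (LCN13 averaged), 209 to 531, 153 to 350, 0 to 4 and 47 to 104, in that order. Genes without overlap, which rise with fewer arrays, ranged from 10 to 18 (TSC22D4 against control, 16.6% to 29% of all genes), 6 to 13 (LCN13 against control, 15.7% to 30.5%), 6 to 12 (both against control, 14.9% to 27.6%), 10 to 17 (both against TSC22D4, 14.5% to 27.1%), 11 to 21 (both against LCN13, 16.5% to 32.6%) and 11 to 20 (TSC22D4 against LCN13, 25.2% to 41.5%).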
